A study of Homo sapiens with 6 samples.

Results

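The tricarboxylic acid cycle was followed through 9 genes of central carbon metabolism, CS, IDH2, IDH3A, OGDH, SUCLG1, SUCLG2, FH, MDH2 and PC. PC feeds the cycle and is not one of its steps. The genes were taken by name from a deposited table of 28847 genes, and all 9 were present and tested. The libraries were made from polyadenylated RNA of cells labelled THP-1, a human monocytic leukaemia line, and all 6 carry that 1 label. They form 3 RBP4 libraries, from cells given recombinant human RBP4 protein, and 3 control libraries, labelled as THP-1 alone. RBP4 is the plasma carrier of retinol; the series concerns its part in tongue cancer and macrophage polarization, and calls the treated cells M0 macrophages. No dose, time or vehicle is given in the labels, and nothing there says that the libraries of a group came from separate cultures, so p-values measure the spread between these libraries, which may be technical.

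The cycle runs in the mitochondrial matrix. Acetyl-CoA joins oxaloacetate to form citrate, and citrate is oxidized step by step back to oxaloacetate, which yields NADH, FADH2 and GTP or ATP. Intermediates also leave the cycle for the synthesis of lipids, amino acids, glucose and heme, and pyruvate carboxylase (PC) makes good the loss by turning pyruvate into oxaloacetate. In activated mouse macrophages the cycle is known to be interrupted at isocitrate and succinate oxidation, with citrate diverted to itaconate, whereas red cell precursors draw on succinyl-CoA from the cycle for heme.

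Of the 9 genes, 6 fell and 1 rose in the RBP4 libraries, and 2 did not pass the test. The genes that fell were CS, IDH2, SUCLG1, SUCLG2, FH and MDH2, each by between 10.9% and 15.5% of the control mean. PC rose 1.24-fold, and IDH3A and OGDH did not pass. The test was limma's moderated test on log2(value + 1), two-sided, with Benjamini-Hochberg adjustment over all 15676 genes tested and a threshold of 0.05. Over all genes tested, 50.6% were called by the same rule, 26.1% lowered and 24.5% raised. Among the 12230 protein-coding genes tested, 56.0% were called, 29.4% lowered and 26.6% raised. Among the 7449 tested genes whose mean lay within the range of the 9 genes, 353 to 9974 normalized reads, 63.4% were called, 42.4% lowered and 20.9% raised. The median log2 fold change was -0.20 over the 9 genes, -0.077 over the genes of that abundance range and -0.0021 over all genes tested. The genes were chosen as a pathway with earlier results of these data known, so no test was made of the group as a whole.

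Markers of the labelled cell type were low or at 0. Of 14 monocyte and macrophage markers, 11 were analysed, none reached 10 CPM (reads scaled to the library total) in all 6 libraries, and 9 stayed under 1 CPM in all 6. Their summed level was 18.5 to 21.1 CPM in the RBP4 libraries and 10.5 to 14.1 CPM in the control libraries, most of it from LYZ. CD14, the monocyte co-receptor for lipopolysaccharide, was at 0 in all RBP4 libraries and at 0.132 CPM or less in the control libraries. Of 17 erythroid markers, 14 reached 10 CPM in all libraries, and their sum was 2248 to 2326 CPM in the RBP4 libraries and 2558 to 2572 CPM in the control libraries. Of the other lists, EPCAM alone of the 2 epithelial markers analysed reached 10 CPM in all libraries, and none of the 3 T cell, 3 B cell or 3 fibroblast markers analysed did. The epithelial sum was 33.8 to 37.5 CPM with RBP4 and 51.2 to 55.5 CPM in the control. The T cell sum was 2.31 to 3.05 CPM with RBP4 and 3.28 to 4.47 CPM in the control, the B cell sum 6.88 to 7.06 CPM with RBP4 and 5.30 to 8.22 CPM in the control, and the fibroblast sum 12.04 to 13.7 CPM with RBP4 and 8.23 to 10.7 CPM in the control. The monocyte and macrophage markers and the erythroid markers thus go against the labelled monocytic type. The groups are therefore called by their labels only. Depth was 15994483 to 16420517 reads in the RBP4 libraries and 15202000 to 16149118 reads in the control libraries. Mitochondrially encoded genes took 7.58% to 7.69% of the reads in the RBP4 libraries and 5.90% to 6.10% in the control libraries. The part of these differences in the results was not tested. In bulk RNA, fewer cells of a type and less RNA per cell cannot be told apart.

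The start regions of 4 genes are shown because they represent both directions of change: MDH2, CS and FH had the smallest adjusted p-values among the lowered genes, and PC was the gene that rose. The sequences are from RefSeq (GRCh38.p14) and run 5′ to 3′ on the strand of the gene. Only bases upstream of the RefSeq start that no GENCODE release 29 exon covers are given. Capitals mark the letters CCGGAAG (an ETS motif, the kind that GABPA binds) and GGGCGG (the GC box of SP1), on either strand. Of the 2 ETS matches of MDH2, the stretch shown holds the one nearer the start. A GC box of CS at 58 bases before the start and one of FH at 2 bases before it lie outside the stretches shown. MDH2 is shown at chr7:76048005-76048050 (plus strand), CS at chr12:56300393-56300580 (minus), FH at chr1:241519762-241520005 (minus), and PC at its 3 RefSeq starts, chr11:66958384-66958633, chr11:66907954-66908203 and chr11:66906035-66906284 (all minus).
MDH2: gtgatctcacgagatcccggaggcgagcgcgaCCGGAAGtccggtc
CS: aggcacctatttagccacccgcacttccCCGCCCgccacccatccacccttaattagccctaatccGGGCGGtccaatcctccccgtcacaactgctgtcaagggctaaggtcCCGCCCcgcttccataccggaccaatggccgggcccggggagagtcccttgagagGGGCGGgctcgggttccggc
FH: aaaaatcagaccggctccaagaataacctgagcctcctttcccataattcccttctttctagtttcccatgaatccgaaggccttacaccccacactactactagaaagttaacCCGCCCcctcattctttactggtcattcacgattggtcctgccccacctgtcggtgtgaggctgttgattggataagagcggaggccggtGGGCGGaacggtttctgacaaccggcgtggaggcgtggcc
PC, start 1: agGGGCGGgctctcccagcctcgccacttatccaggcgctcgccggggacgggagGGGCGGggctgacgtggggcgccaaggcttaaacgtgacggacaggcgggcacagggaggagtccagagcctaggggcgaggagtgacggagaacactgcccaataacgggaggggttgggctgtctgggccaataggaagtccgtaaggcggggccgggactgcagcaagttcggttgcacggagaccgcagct
PC, start 2: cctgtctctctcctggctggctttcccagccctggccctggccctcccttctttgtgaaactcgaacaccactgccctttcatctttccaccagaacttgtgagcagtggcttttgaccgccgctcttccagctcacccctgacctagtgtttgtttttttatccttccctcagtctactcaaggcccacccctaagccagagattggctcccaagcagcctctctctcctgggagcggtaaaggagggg
PC, start 3: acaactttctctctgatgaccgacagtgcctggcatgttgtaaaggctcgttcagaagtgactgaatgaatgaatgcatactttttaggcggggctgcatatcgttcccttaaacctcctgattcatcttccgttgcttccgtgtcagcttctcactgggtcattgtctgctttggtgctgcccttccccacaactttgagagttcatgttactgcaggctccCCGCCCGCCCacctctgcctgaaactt

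RefSeq windows of 300 bases, from 250 before to 50 after each start, were matched for 8 of the 9 genes (10 windows, 3 of them for PC). The GC box was in 6 of the 10 windows, those of CS, IDH3A, SUCLG2, FH and starts 1 and 3 of PC, and in 45% of all 35116 windows. The ETS motif CCGGAAG was in the MDH2 window, at 113 and 69 bases before the start, in no other of the 10, and in 10.3% of all windows. A consensus motif of NRF1 was in the IDH3A window and in 5.78% of all windows. No match was found in the 10 windows for the C/EBP-ATF response element TGATGNAA (3.62% of all windows), the E-box CACGTG (7.26%) or the estrogen-related receptor motif TCAAGGTCA (0.353%). All motifs were searched on both strands, and the GC box matches at start 3 of PC overlap each other. The share of G and C ran from 48.3% in the IDH2 window to 70% in those of IDH3A and SUCLG2; IDH2, SUCLG1, FH and starts 2 and 3 of PC lay below the median of 58.7% over all windows, and the others above it. Counts per gene do not say which start of PC was in use.

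Citrate is formed and oxidized by the first enzymes of the cycle. CS, citrate synthase (ENSG00000062485, chromosome 12, 56271699 to 56300392, GRCh38), joins acetyl-CoA to oxaloacetate. It had 5149, 5347 and 5245 normalized reads in RBP4 libraries 1, 2 and 3, and 6127, 6254 and 6149.6 in control libraries 1, 2 and 3. Every RBP4 library was below every control library. The means were 5247 ± 99.0 with RBP4 and 6177 ± 68.1 in the control (SD, n = 3 per group), 15.1% lower with RBP4 (log2 fold change -0.24, SE 0.028, limma adjusted p = 6.7e-11). IDH2 (ENSG00000182054, chromosome 15, 90083045 to 90102504) encodes the mitochondrial isocitrate dehydrogenase that makes NADPH. Its values were 3174, 3275 and 2882 in the RBP4 libraries and 3633, 3645 and 3440.5 in the control libraries, again without overlap. RBP4 library 3 was the lowest of its group. IDH2 was 12.9% lower with RBP4 (log2 fold change -0.20, SE 0.037, limma adjusted p = 1.1e-05).

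IDH3A (ENSG00000166411, chromosome 15, 78131498 to 78171949) encodes the catalytic subunit of the NAD-dependent isocitrate dehydrogenase, and per kilobase of exon it was the lowest of the 9 genes. It had 333, 346 and 326 normalized reads in the RBP4 libraries and 347, 369 and 398 in the control libraries. The groups did not overlap, although RBP4 library 2 and control library 1 were nearly level, and the gene did not pass (log2 fold change -0.15, 95% interval -0.30 to 0.010, limma adjusted p = 0.11). The value was -0.095 without control library 3, the highest, and -0.078 and -0.052 under the scalings by total reads with and without mitochondrially encoded genes. OGDH (ENSG00000105953, chromosome 7, 44606572 to 44709066), the first component of the 2-oxoglutarate dehydrogenase complex, had 1489, 1579 and 1611 in the RBP4 libraries and 1565, 1567 and 1655 in the control libraries. The groups overlapped. The difference was 2.27% (log2 fold change -0.033, 95% interval -0.12 to 0.050, limma adjusted p = 0.53), and its sign turned when libraries were scaled to total reads (0.035). Leaving out RBP4 library 1 or control library 3 brought it to -0.00025 and -0.0066, and leaving out RBP4 library 3 to -0.057.

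Succinyl-CoA ligase makes GTP or ATP directly from the cycle. SUCLG1 (ENSG00000163541, chromosome 2, 84423523 to 84460045) encodes the alpha subunit shared by both forms of the enzyme. It had 1454, 1450.4 and 1499 normalized reads in the RBP4 libraries and 1594, 1756 and 1590.1 in the control libraries, without overlap. Control library 2 stood above the other two. The fall of 10.9% passed (log2 fold change -0.16, SE 0.043, limma adjusted p = 0.00089) but was lost when libraries were scaled to total reads (log2 fold change -0.10, adjusted p = 0.0549, with 0.000479 and 0.166 the lowest and highest of its alternatives). SUCLG2 (ENSG00000172340, chromosome 3, 67360460 to 67654614) encodes the beta subunit that is specific for GTP. It had 1089, 1058 and 1094 in the RBP4 libraries and 1258, 1249 and 1313 in the control libraries. It was 15.1% lower with RBP4 (log2 fold change -0.24, SE 0.046, limma adjusted p = 1.4e-05). Its pseudogene SUCLG2P4 averaged 21.4 normalized reads with RBP4 and 25.9 in the control, 2.01% of SUCLG2, and exchange of reads between them was not tested.

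The last steps turn fumarate into oxaloacetate. FH, fumarate hydratase (ENSG00000091483, chromosome 1, 241497603 to 241519761), had 3716, 3657 and 3481 normalized reads in the RBP4 libraries and 4100.4, 4208 and 4356 in the control libraries. MDH2, the mitochondrial malate dehydrogenase (ENSG00000146701, chromosome 7, 76048051 to 76067508), had 9356, 9036 and 9016 in the RBP4 libraries and 10875, 10618 and 10941 in the control libraries. In both genes every RBP4 library was below every control library. FH averaged 3618 ± 122 with RBP4 and 4221 ± 128 in the control (SD, n = 3 per group), 14.3% lower (log2 fold change -0.22, SE 0.032, limma adjusted p = 1.5e-08). MDH2 averaged 9136 ± 191 with RBP4 and 10812 ± 171 in the control, 15.5% lower (log2 fold change -0.24, SE 0.025, limma adjusted p = 3.0e-13).

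PC (ENSG00000173599, chromosome 11, 66848233 to 66958376) is the biotin enzyme that supplies oxaloacetate from pyruvate. It had 822, 784 and 724 normalized reads in the RBP4 libraries and 644, 589 and 646 in the control libraries. All RBP4 libraries were above all control libraries, and RBP4 library 3 was the nearest to them. The means were 776 ± 49.2 with RBP4 and 626 ± 32.4 in the control (SD, n = 3 per group; log2 fold change 0.31, SE 0.059, limma adjusted p = 8.7e-06). The exons of PC share 621 bases, 10.5% of the length, with LRFN4 on the opposite strand, and the libraries do not mark the strand. LRFN4 had 387 ± 48.0 normalized reads with RBP4 and 471 ± 29.7 in the control, a fall (log2 fold change -0.29, limma adjusted p = 0.0011), the opposite direction to PC. IDH3A shares 2608 bases, 38.2% of its length, with ACSBG1, which averaged 6.21 normalized reads, and 47 bases with CIB2. CS shares 220 bases with a gene on its own strand that is not in the table (AC073896.1) and 28 with an antisense gene.

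Of the 9 genes, 7 had every RBP4 library below every control library and 1, PC, had every RBP4 library above. Over all genes tested, 28.9% separated the groups downwards and 27.3% upwards.

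**Figure D1:**
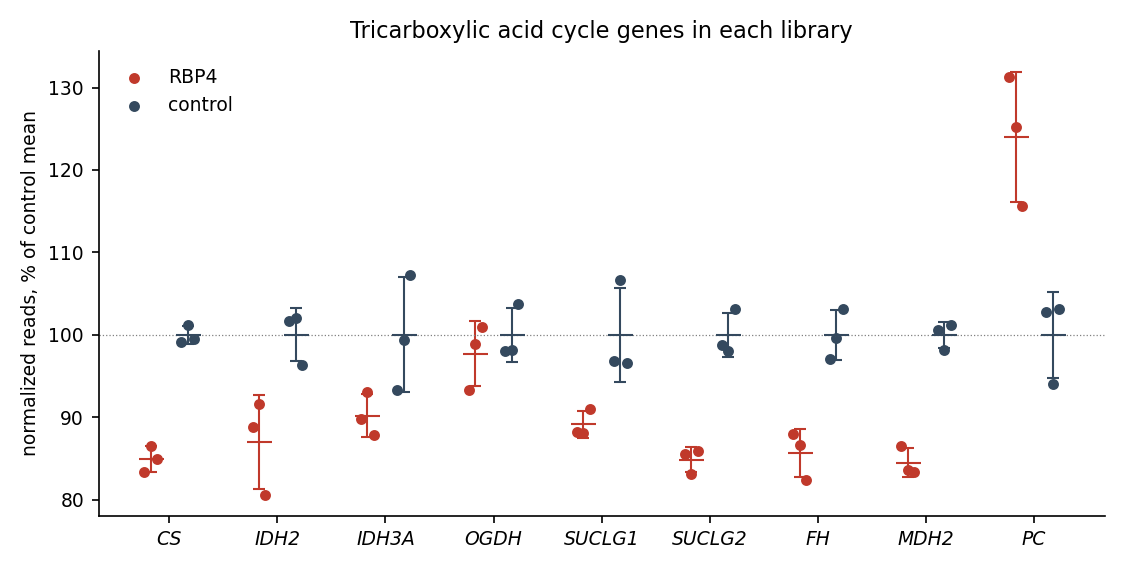
Normalized reads of each gene in each library as a percentage of the control mean, RBP4 libraries left (red) and control libraries right (dark), with bars for mean ± SD of 3 libraries. OGDH is the gene whose groups overlap, PC lies above the control mean at 1.24-fold, and the others lie below it.

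Per kilobase of exon, the genes spanned a wide range and kept the same order in both groups. MDH2 was the highest with 2509 ± 52.4 normalized reads per kb in the RBP4 libraries and 2969 ± 46.9 in the control libraries (SD, n = 3 per group). FH followed with 1689 ± 57.2 per kb with RBP4 and 1971 ± 59.9 in the control, IDH2 with 1105 ± 72.6 with RBP4 and 1269.7 ± 40.8 in the control, and CS with 819.6 ± 15.5 with RBP4 and 965 ± 10.6 in the control. SUCLG2 had 349.7 ± 6.25 per kb with RBP4 and 412 ± 11.2 in the control, and SUCLG1 had 342 ± 6.39 with RBP4 and 384 ± 22.1 in the control. These subunits of 1 enzyme were the only neighbours in this order whose ranges over libraries overlapped, and they did so in both groups. The lowest were OGDH with 299 ± 12.2 per kb with RBP4 and 306 ± 9.94 in the control, PC with 131 ± 8.31 with RBP4 and 106 ± 5.47 in the control, and IDH3A with 49.0 ± 1.43 with RBP4 and 54.4 ± 3.79 in the control. The length is the union of all annotated exons, so a gene with long rare exons appears lower than it is; IDH3A, with 6832 bases, is the longest of the 9.

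**Figure D2:**
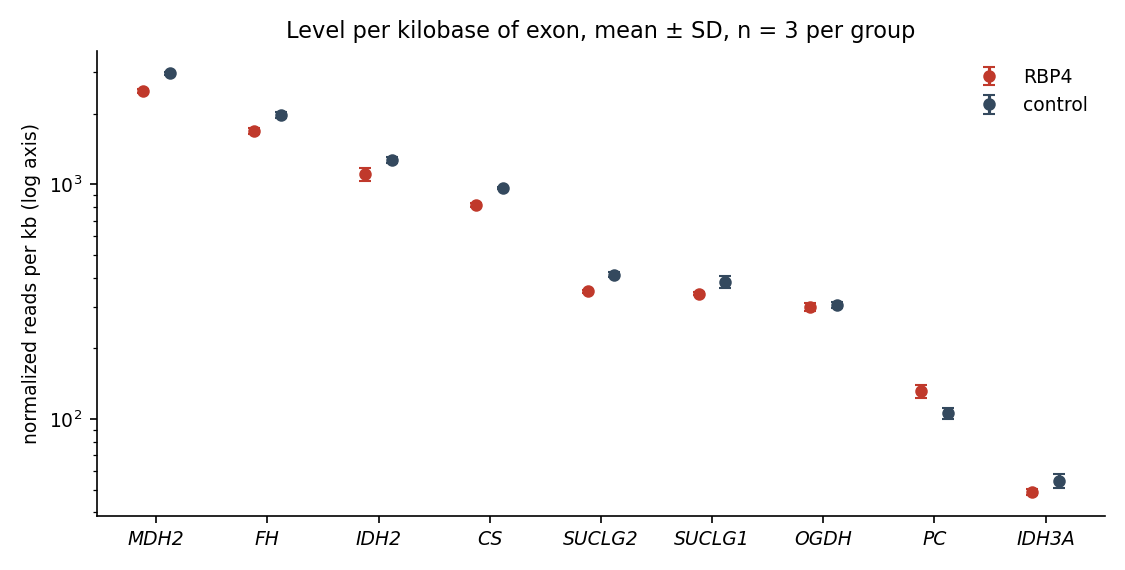
Level of each gene in normalized reads per kilobase of exon on a log axis, mean ± SD of 3 RBP4 libraries (red, left) and 3 control libraries (dark, right). The order runs from MDH2 to IDH3A, and SUCLG2 and SUCLG1 lie close together.

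Among the other 10 subunits of the cycle, 8 fell, 0 rose and 2 missed the threshold, where 26.1% of all tested genes and 42.4% of those in the abundance range of the 9 genes were lowered. Their median was -0.20 on the log2 scale. IDH3B, a regulatory partner of IDH3A, averaged 1657 ± 39.4 normalized reads with RBP4 and 1974 ± 98.9 in the control, a fall of 0.25 on the log2 scale (limma adjusted p = 2.4e-07), while the other partner, IDH3G, stood at 952 ± 14.1 with RBP4 and 974 ± 65.4 in the control and did not pass (limma adjusted p = 0.65). All 4 subunits of succinate dehydrogenase fell: SDHA by 0.21, SDHB by 0.19, SDHC by 0.16 and SDHD by 0.25 on the log2 scale. SUCLA2, the ATP-specific beta subunit of succinyl-CoA ligase, fell by 0.20, a call lost with scaling to total reads (limma adjusted p = 0.0808; lowest 0.00466 and highest 0.167 among its alternatives). In the 2-oxoglutarate dehydrogenase complex, DLST, the second component, fell by 0.17 (limma adjusted p = 0.00051). DLD, the third component, which also serves the pyruvate dehydrogenase complex, stood at 4428 ± 102 with RBP4 and 4303 ± 70.0 in the control (log2 fold change 0.041, limma adjusted p = 0.26). Of all 19 genes, 14 fell, 1 rose and 4 did not pass, beside the same shares.

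**Figure D3:**
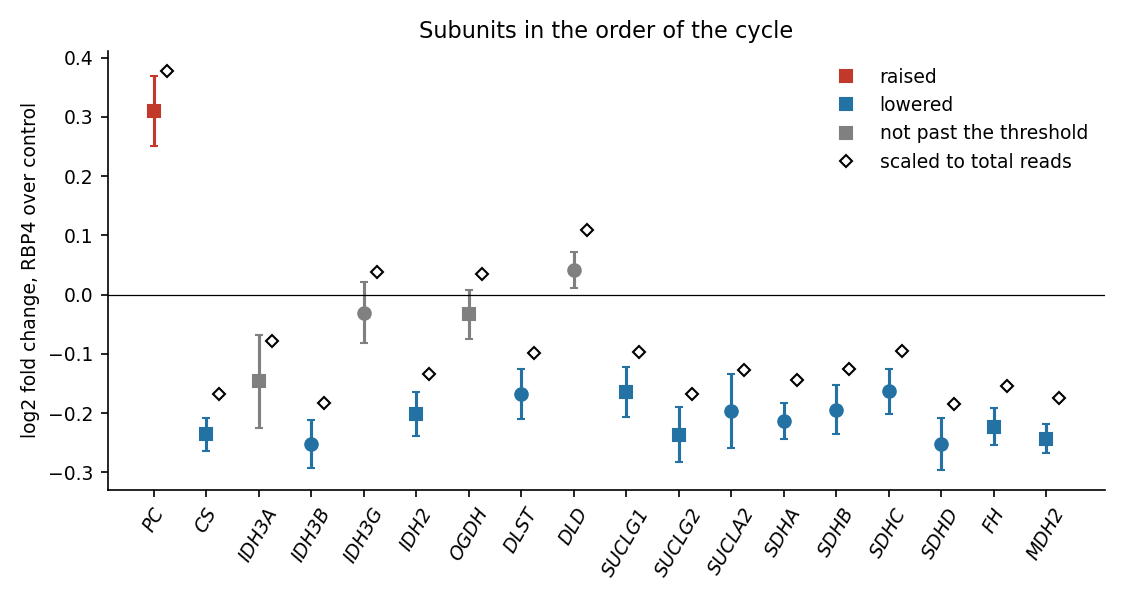
Log2 fold change, RBP4 over control, with its SE for 18 genes in the order of the reactions; squares are the 9 genes described here, circles other subunits. Colours give the call, and open diamonds give the fold change after scaling to total reads, which lies higher for every gene shown.

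The size of these falls depended on how libraries were scaled. With total reads the median over all tested genes shifted by 0.068 on the log2 scale, and with total reads without mitochondrially encoded genes by 0.093. Raised genes made up 48.4% of all calls with the authors' size factors, 61.7% with total reads and 66.9% with total reads without mitochondrially encoded genes. Of all 15676 genes tested, 2991 were lowered and 4821 raised with total reads. Without mitochondrially encoded genes, 2603 of them were lowered and 5269 raised. Of the 9 genes, 5 fell and 1 rose under either scaling by total reads, SUCLG1 being the call that was lost. The median of the 9 was -0.13 with total reads and -0.11 without mitochondrially encoded genes. In the last scaling MDH2 stood at -0.15, CS and SUCLG2 at -0.14, FH at -0.13, IDH2 at -0.11 and PC at 0.40. In that scaling IDH3B and SDHD stood at -0.16, SDHA at -0.12 and SDHB at -0.10. Of the other 10 subunits, 7 fell with total reads, SUCLA2 being lost, and 5 without mitochondrially encoded genes, where DLST and SDHC were lost too, and in both DLD was called raised (0.11 and 0.14).

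Enzymes that carry out the same or neighbouring steps were compared by the log2 ratio of their normalized reads within each library, which does not depend on the scaling. A total of 10 pairs were tested with an exact two-sided permutation test, which cannot go below 0.1 with 3 libraries against 3. The lowest adjusted p of this permutation test over the 10 pairs was 0.25. The ratio of IDH2 to IDH1, its counterpart in the cytosol and peroxisome, averaged -0.18 ± 0.081 in the RBP4 libraries and 0.83 ± 0.053 in the control libraries (exact permutation p = 0.1, adjusted 0.25). The difference was -1.01 on the log2 scale, and the groups did not overlap. IDH1 itself had 3511 ± 44.4 normalized reads with RBP4 and 2005 ± 29.8 in the control, 1.75-fold higher.

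The ratio of PC to CS averaged -2.76 ± 0.105 with RBP4 and -3.30 ± 0.091 in the control, a difference of 0.55 without overlap (exact permutation p = 0.1, adjusted 0.25). PC and CS use up pyruvate-derived carbon by separate routes, as oxaloacetate and as acetyl-CoA. The ratio of PC to PCK2, the mitochondrial enzyme that turns oxaloacetate into phosphoenolpyruvate, averaged -1.77 ± 0.076 with RBP4 and -1.02 ± 0.027 in the control (difference -0.75, exact permutation p = 0.1, adjusted 0.25). MDH2 to MDH1, the cytosolic malate dehydrogenase, differed by -0.067 without overlap (1.84 ± 0.021 with RBP4 and 1.90 ± 0.057 in the control; exact permutation p = 0.1, adjusted 0.25). Control library 1 stood at 1.97, the other control libraries both at 1.87, and without it the difference was -0.034. In the other 6 pairs the groups overlapped. These were SUCLG2 to SUCLA2 (difference -0.040), SUCLG1 to SUCLG2 (0.072), IDH3A to IDH3B (0.11), IDH3A to IDH3G (-0.12), IDH2 to IDH3A (-0.055) and OGDH to DLST (0.13), with exact permutation p-values of 0.2 to 0.5 before adjustment. Each of these 6 differences moved by over 1.5 times when some single library was left out. In OGDH to DLST, RBP4 library 3 stood apart at 0.11, with -0.097 and -0.067 in RBP4 libraries 1 and 2 and -0.15, -0.22 and -0.087 in the control libraries; without it the difference was 0.070.

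**Figure D4:**
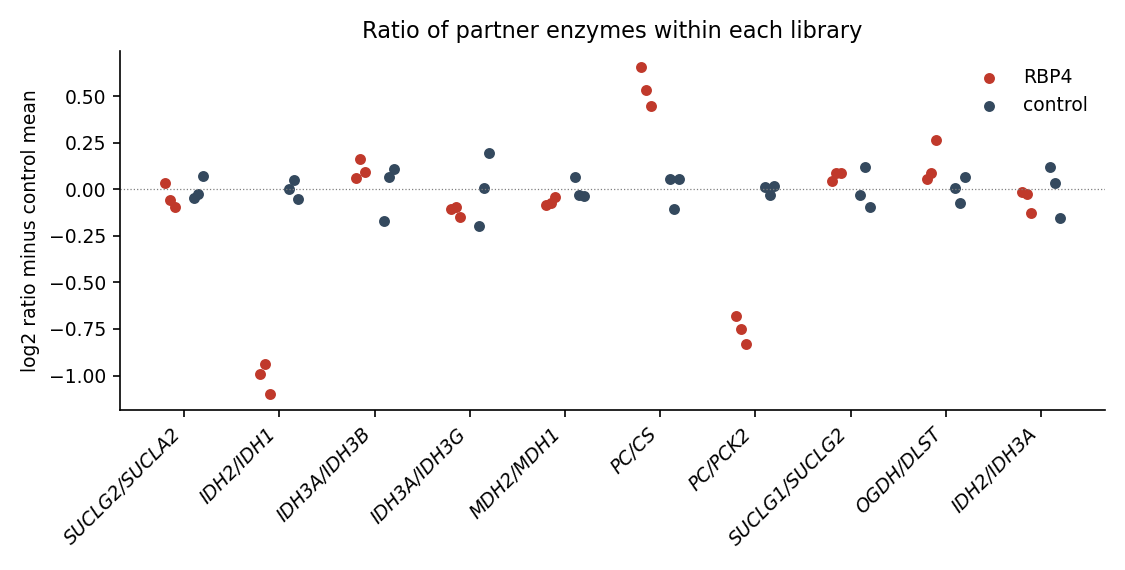
Log2 ratio of 10 pairs of enzymes in each library, minus the control mean of the pair; RBP4 libraries left (red), control libraries right (dark). The groups lie apart in IDH2/IDH1, MDH2/MDH1, PC/CS and PC/PCK2, with the widest gap in IDH2/IDH1 at -1.01.

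The lists of genes that feed, drain and serve the cycle are set beside the shares over all tested genes, 24.5% raised and 26.1% lowered. At the entry of pyruvate, 3 of 13 genes rose, near that share, and 7 fell (median -0.13). PDK1, a kinase that restrains pyruvate dehydrogenase, had 836 ± 37.2 normalized reads with RBP4 and 1813 ± 46.4 in the control, a fall of 1.12 on the log2 scale (limma adjusted p = 2.3e-32). PDK3, a kinase of the same family, fell by 0.46, and DLAT, the second component of pyruvate dehydrogenase, by 0.25 (-0.16 with total reads without mitochondrially encoded genes). PDP1, a phosphatase that activates the complex, rose 1.71-fold, with 119 ± 9.63 normalized reads with RBP4 and 69.9 ± 10.6 in the control (limma adjusted p = 1.7e-05). Of the other kinase and phosphatase genes of the list, PDPR rose like PDP1, whereas PDK4, PDK2 and PDP2 went the other way. The kinase PDK4 rose by 0.14 (limma adjusted p = 0.049), and PDK2 stood 0.38 higher without passing (limma adjusted p = 0.077). The phosphatase PDP2 fell by 0.13 (limma adjusted p = 0.026), and PDPR, a subunit of the phosphatase, rose by 0.14 (limma adjusted p = 0.0088).

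Among 17 genes of carbon entry and exit, 14 were tested, of which 4 rose and 5 fell (median -0.070). The number that fell was 3 without RBP4 library 1, without RBP4 library 2 or without control library 3, and 2 with scaling to total reads. PCK2 rose 2.09-fold, with 2648 ± 31.8 normalized reads with RBP4 and 1268 ± 42.8 in the control (limma adjusted p = 3.4e-35). PCK1, the cytosolic form, rose 1.65-fold at a low level, 91.7 ± 6.74 with RBP4 and 55.6 ± 9.23 in the control. GPT2, the mitochondrial alanine aminotransferase, rose 1.32-fold. ABAT, which breaks down GABA to feed succinate, stood at 23.6 ± 3.14 with RBP4 and 13.1 ± 2.62 in the control (limma adjusted p = 0.032). The ABAT call was lost in 6 of 15 alternatives, among them leaving out RBP4 library 1 or 2 or control library 1 or 3, and its adjusted p lay between 0.0169 and 0.128. ACOD1, which makes itaconate from a cycle intermediate in activated macrophages, was at 0 in every library but RBP4 library 2 (1.89 normalized reads) and was not tested.

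Of 8 cytosolic counterparts and paralogues, 2 rose and 3 fell (median 0.032). GOT1, the cytosolic aspartate aminotransferase, rose 1.51-fold along with IDH1. ACLY, which splits exported citrate to acetyl-CoA for lipid synthesis, had 4396 ± 67.4 normalized reads with RBP4 and 6025 ± 137 in the control, a fall of 0.45 (limma adjusted p = 3.5e-22). MDH1 fell by 0.18 and ACO1, the cytosolic aconitase that doubles as an iron sensor, by 0.19. With total reads without mitochondrially encoded genes, MDH1 stood at -0.082 (limma adjusted p = 0.047) and ACO1 at -0.091, where its call was lost (limma adjusted p = 0.109, range 0.000682 to 0.109 over its alternatives). Of 9 mitochondrial carriers, 3 fell and none rose (median -0.093; 1 rose without RBP4 library 3 or with scaling to total reads). SLC25A1, which exports the citrate that ACLY uses, fell by 0.44, with 4343 ± 71.3 with RBP4 and 5889 ± 220.0 in the control (limma adjusted p = 7.9e-21). SLC25A13, an aspartate and glutamate carrier, fell by 0.21 (-0.12 with total reads without mitochondrially encoded genes).

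Of 13 genes of cofactors and assembly, 2 rose and 1 fell (median -0.037; 4 rose with scaling to total reads). HLCS, the ligase that attaches biotin to PC and the other biotin carboxylases, rose 1.68-fold, with 699 ± 30.8 normalized reads with RBP4 and 415 ± 23.0 in the control (limma adjusted p = 3.6e-16). IBA57, a factor of iron-sulfur cluster assembly, rose by 0.35, and SDHAF3, an assembly factor of succinate dehydrogenase, fell by 0.25 (-0.15 with total reads without mitochondrially encoded genes). Of 9 regulators of mitochondrial genes, 8 were tested, of which 1 rose and 4 fell (median -0.11; 2 fell without any single library but control library 2, and 1 with scaling to total reads). GABPA, an ETS factor of mitochondrial genes, had 743 ± 8.50 normalized reads with RBP4 and 954 ± 73.8 in the control, a fall of 0.36 (limma adjusted p = 7.9e-08). SIRT3, the mitochondrial deacetylase, rose by 0.21. TFAM, which maintains mitochondrial DNA, fell by 0.13, a call lost in 3 of 16 alternatives. These were leaving out RBP4 library 2 (-0.093, limma adjusted p = 0.0664), total reads (-0.060, adjusted p = 0.198) and total reads without mitochondrially encoded genes (-0.034, adjusted p = 0.484, in a range of 0.000648 to 0.484). NRF1 stood at 330.1 ± 11.7 with RBP4 and 376 ± 32.7 in the control with overlapping groups (limma adjusted p = 0.047), a call lost in 11 of 16 alternatives, among them leaving out any single library but control library 2, with an adjusted p between 0.0112 and 0.36.

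**Figure D5:**
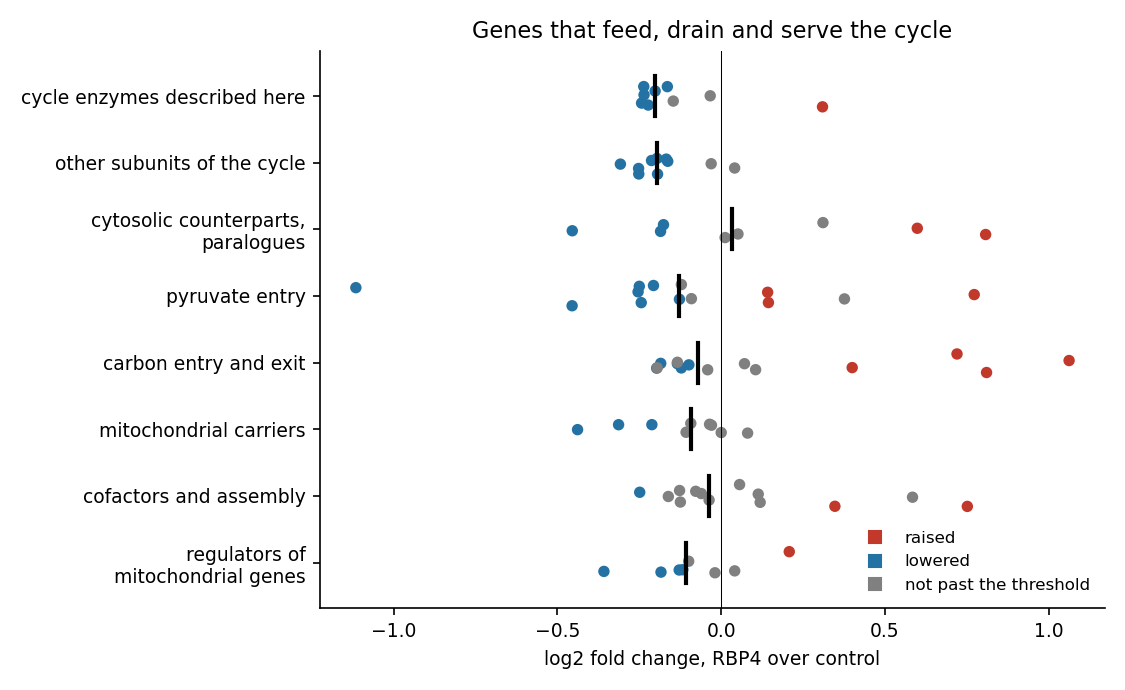
Log2 fold change, RBP4 over control, of every tested gene in each list; points are genes coloured by call and black bars are medians. The medians of the 9 genes described here, PC included, and of the other subunits are both -0.20. PC lies apart at 0.31, and PDK1 at -1.12 and PCK2 at 1.06 are the extremes.

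By the distance between log2 profiles over the 6 libraries, each centred on its control mean, the protein-coding genes most like the mean of the 9 were SPCS3 (distance 0.027), DNAJC2 (0.028) and NUP214 (0.029), with log2 fold changes of -0.13, -0.12 and -0.12. The mean profile of the 9 stood at -0.13 in the RBP4 libraries. In the authors' deposited table the same 6 genes were lowered and PC was raised at an adjusted p under 0.05, and IDH3A (adjusted p = 0.31) and OGDH (0.703) were not called.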

How the data were processed

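Sample titles gave the group and replicate number. Poly-T selected RNA was made into NEBNext Ultra libraries, per the labels' protocols; this kit does not mark the strand, and for the aligner and counter the entry is not given in the sources used here. Per the file headers, the authors' table holds normalized signal by gene for each library and group, and their own p-values, adjusted p-values and log2 fold changes. In each library all values (100%) were whole multiples of 1 step within 0.01 reads, as counts over a size factor are; the recovered reads gave the depth. All 28847 genes had the start and end of GENCODE release 29. No sample column was left unused (0 columns).

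As designed for a table without raw counts, limma-trend (limma 3.58.1, R 4.3.3, robust) was fitted on log2(value + 1) for genes with at least 10 in at least 3 libraries; edgeR 4.0.16 and DESeq2 1.42.0 on recovered reads were alternatives. The scale understates fold changes of low genes. The fit was tested on simulated data. Intervals are 95%. Members, lists, pairs and alternatives were chosen with earlier results of these data known. All 9 members were named, with all other subunits and, of each other list, up to 4 called genes with the largest fold change. MDH1 is named for its pair, LRFN4 for its overlap, and ACOD1 was chosen after its values were seen. PDK2, PDK4, PDP2 and PDPR were also added after their values were seen, to complete their families. MMUT was matched by gene ID. Of the genes this rule names, 2 are not reported here, though counts and medians of their lists include them.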

Additional observations from a re-analysis of the deposited data

How the results depend on the processing

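The 9 genes gave 6 falls and 1 rise with TMM scaling, a pseudocount of 5, no filter, a filter of 5 CPM in 3 libraries, protein-coding genes only, edgeR, DESeq2, the replicate block and each library left out in turn. With total reads and with total reads without mitochondrially encoded genes, SUCLG1 stood at -0.10 and -0.070 and was no longer called, OGDH at 0.035 and 0.061 and IDH3G at 0.038 and 0.064; the cause was not tested. The number of all tested genes lowered was 2603 in the second of these scalings. Over the other lists together, 12 of 75 tested genes were raised and 31 lowered, beside 24.5% raised and 26.1% lowered of all 15676 genes tested. In the abundance range of the 9 genes, 20.9% of tested genes were raised and 42.4% lowered. With total reads 19 of the 75 were raised, beside 4821 of all genes tested. Without mitochondrially encoded genes 22 of the 75 were raised and 19 lowered, beside 5269 and 2603 of all genes tested. Leaving out each library gave -0.076 to 0.020 for IDH3G and -0.13 to 0.0052 for the log2 ratio of IDH2 to IDH3A. Same-numbered libraries did not deviate together (correlations of 0.0037, -0.0079 and -0.0169), so the numbers are not taken as pairs; with the replicate block 3791 genes were raised and 4038 lowered, against 3838 and 4096 without it, and every one of the 9 genes kept its call. With 3 libraries a group, differences of a few percent such as that of OGDH are within the error.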
